A study of Mus musculus with 7 samples.

Results

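Efr3b and the genes whose proteins form a membrane complex with a lipid kinase were followed across 7 hypothalamus arrays. The genes are Efr3b, its paralog Efr3a, the kinase gene Pi4ka, and Ttc7, Ttc7b, Fam126a and Fam126b. They were chosen by symbol, and every probe set that the array annotation assigns to one of these symbols alone was taken. This gave 19 probe sets for 7 genes, out of 45037 probe sets and 18193 named genes. Efr3b entered because its level differed between the genotypes in these same arrays. Its own difference is therefore described with no test, and the question put to the data is whether its 6 partner genes differed along with it.

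The knockout group, Creb-PomcCre-/-, held 3 samples, and in these mice a Cre recombinase under Pomc control removes Creb. The wild-type group held 4 samples. All mice were 3 months old, and each sample of hypothalamus was hybridised to 1 Affymetrix mouse430_2 array. Creb1 encodes a transcription factor downstream of cyclic AMP, and Pomc encodes the prohormone that is cut into melanocortins, peptides that curb feeding. Few hypothalamic cells express Pomc, so a whole-tissue array dilutes what happens in them, and fewer cells of a type and less RNA per cell cannot be told apart in such tissue. The labels name PomcCre for the knockout group only, so that loss of Creb and presence of the Cre transgene cannot be told apart between these groups. The strain, and the genomic sequence that the transgene holds, are not given in the sources used here. The labels call the samples biological replicates, without saying whether a sample is 1 mouse.

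Phosphatidylinositol 4-kinase alpha, the product of Pi4ka, makes phosphatidylinositol 4-phosphate at the plasma membrane. That lipid is the precursor of the bisphosphate which phospholipase C cleaves when receptors are stimulated and on which many ion channels depend. The kinase has no membrane anchor of its own: an EFR3 protein, fixed to the inner face of the membrane by palmitoylation, holds a TTC7 scaffold, and TTC7 together with a FAM126 protein binds the kinase. Each of these 3 subunits is encoded by a pair of paralogous genes in mouse, and only the kinase has a single gene.

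Since the study asked which genes lie downstream of Creb, promoters were searched for the Creb binding motif. The promoter of Efr3b is shown because Efr3b differed most among these genes, and that of Fam126b because its brightest probe set had the largest difference among the partners. Both come from the RefSeq table of build GRCm38.p6 and run from 250 bases before to 50 bases after a transcript start. The Efr3b promoter lies at chr12:4038866-4039165 on the minus strand and the Fam126b promoter at chr1:58586105-58586404 on the minus strand. Capitals mark the half-site TGACG, or its reverse complement CGTCA.
Efr3b: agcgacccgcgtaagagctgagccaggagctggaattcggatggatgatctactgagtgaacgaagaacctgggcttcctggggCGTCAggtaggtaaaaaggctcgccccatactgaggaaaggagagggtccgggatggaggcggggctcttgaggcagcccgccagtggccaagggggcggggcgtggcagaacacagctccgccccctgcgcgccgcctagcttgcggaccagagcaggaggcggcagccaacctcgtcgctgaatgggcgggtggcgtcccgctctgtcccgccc
Fam126b: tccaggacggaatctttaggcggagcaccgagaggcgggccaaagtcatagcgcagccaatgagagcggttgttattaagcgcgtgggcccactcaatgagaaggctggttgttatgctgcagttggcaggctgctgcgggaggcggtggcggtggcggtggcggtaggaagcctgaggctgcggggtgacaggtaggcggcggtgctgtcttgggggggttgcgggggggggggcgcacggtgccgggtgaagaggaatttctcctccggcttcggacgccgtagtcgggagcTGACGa

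The full palindrome TGACGTCA, which contains the half-site on both strands, was in 0 of the 9 promoter entries found for 6 of the 7 genes. Over all 32851 entries of the table, 1.79% held it. The half-site was in 3 of the 9 entries, those of Efr3b, Ttc7 and 1 of the Fam126b starts, against 20.8% of all entries. In Efr3b it begins at position -166 from the start, on the strand opposite to transcription. In Fam126b it begins at position +45 and in Ttc7 at position -243, both on the coding strand. No promoter entry was matched for Efr3a. These matches describe the letters of a 300-base window and are not evidence of binding.

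Levels are the authors' log2 expression values, so that a difference of 1 is a doubling, and levels of different probe sets are not compared with each other. The brighter Efr3b probe set, 1435123_at, read 11.85, 11.82 and 11.83 in the knockout arrays, against 11.06, 10.88, 10.90 and 10.99 in the wild-type arrays. The knockout arrays lay within 0.026 of each other, the wild-type arrays within 0.18, and the lowest knockout array stood 0.76 above the highest wild-type array. Means were 11.83 ± 0.014 (SD, n = 3) in the knockout and 10.96 ± 0.084 (SD, n = 4) in wild type, a difference of 0.88 ± 0.047 (SE), or 1.84-fold higher in the knockout. The dimmer Efr3b probe set, 1440580_at, read 6.59, 6.68 and 6.85 in the knockout, against 6.06, 6.15, 6.06 and 5.92 in wild type. It too was higher in every knockout array than in any wild-type array, by 0.66 ± 0.088 (SE) in the mean. Over all probe sets, 6.02% were higher in the knockout without overlap. With sex inferred from the Xist and Y-linked signals, the brighter probe set differed by 0.83 within females (1 knockout and 2 wild-type arrays) and by 0.94 within males (2 of each).

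**Figure D1:**
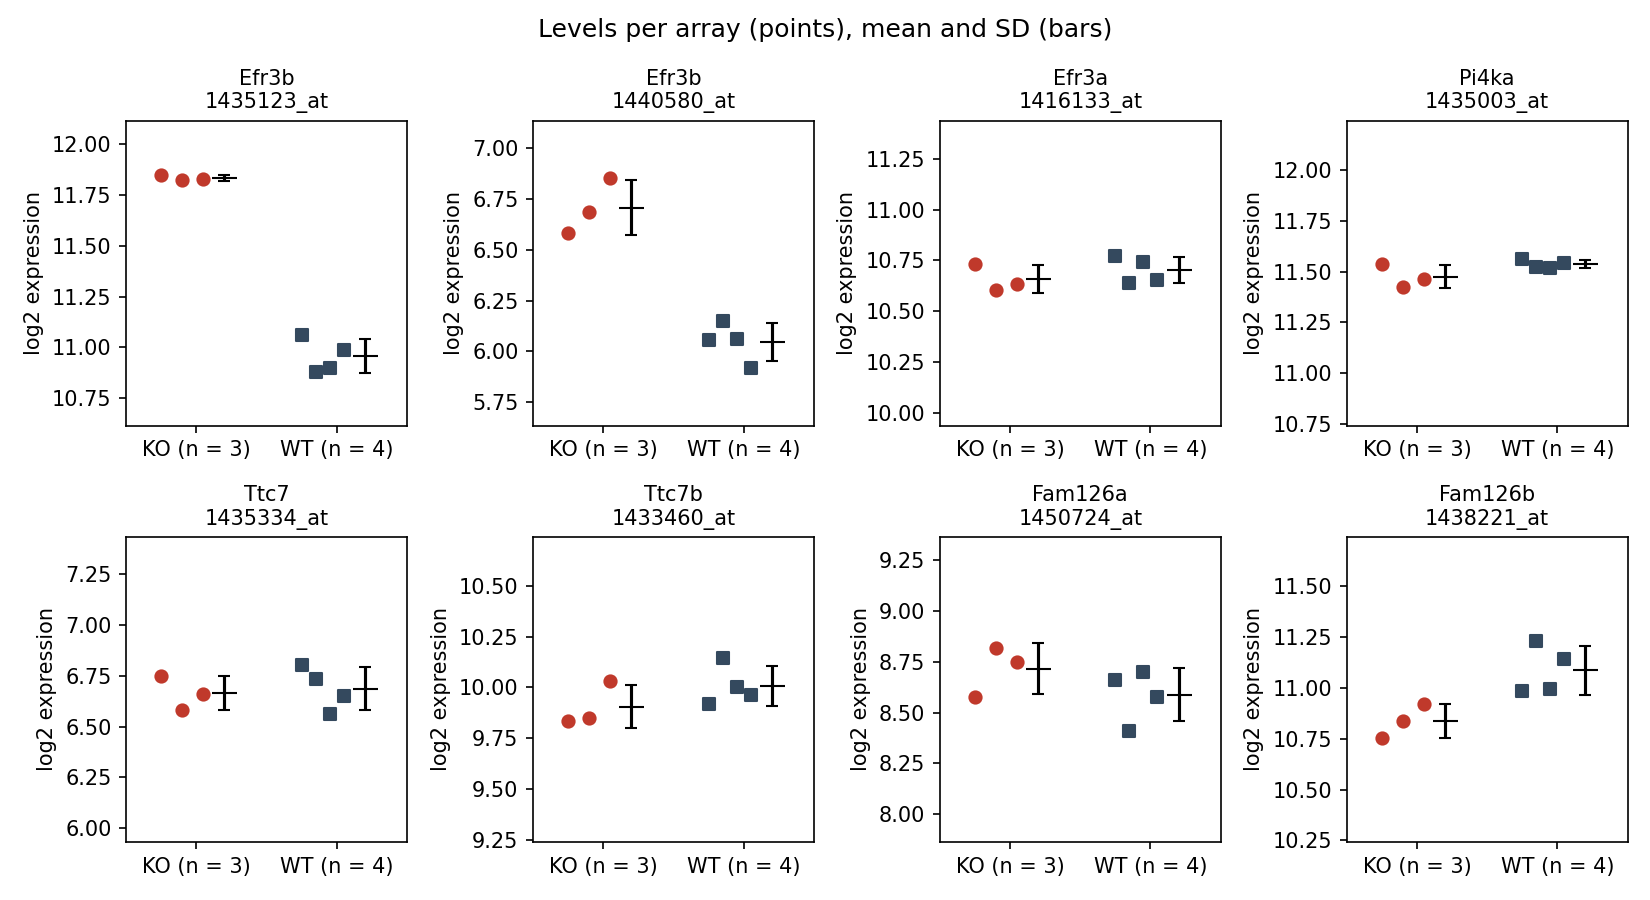
Log2 expression on each array for both Efr3b probe sets and for the brightest probe set of each partner gene, knockout (KO, circles) beside wild type (WT, squares), with the mean and SD to the right of the points. Every panel spans the same log2 range. The KO and WT points of Efr3b are well apart, those of Fam126b do not overlap by a narrow margin, and those of the other 5 partner genes overlap.

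The threshold used for the partner genes was an adjusted p of 0.05 from limma with Benjamini-Hochberg adjustment over all probe sets. Of the 17 partner probe sets, 0 passed, and 3 of all 45037 probe sets did (0.00666%). With so few passing anywhere, that count does not set the partners apart from other probe sets. The lowest adjusted p among the partner probe sets was 0.329. An unadjusted p under 0.05 was reached by 1 of the 17 (5.88%), while 10.6% of all probe sets reached it. That count was 3 without knockout array 3, 2 without knockout array 1 or wild-type array 3, and 3 without wild-type arrays 2 and 3 together. Partner differences ran from -0.25 to 0.18, with 13 negative and 4 positive and a median of -0.062. Over all probe sets, 46.8% of differences were negative and the median was 0.0084. The upper 95% bound was at most 0.43 for any partner probe set, and at most 0.32 for the brightest probe set of any partner gene. A rise of the size seen for Efr3b, 0.88, thus lay outside the intervals of the 10 partner probe sets at or above the median level of all probe sets. Efr3b was chosen for this difference, so its size is not an independent standard. Of the 10, the Ttc7 probe set was close to the median level, at the 56.1 percentile. The other 7 partner probe sets were dimmer, cannot be told from background, and set no limit on their genes.

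**Figure D2:**
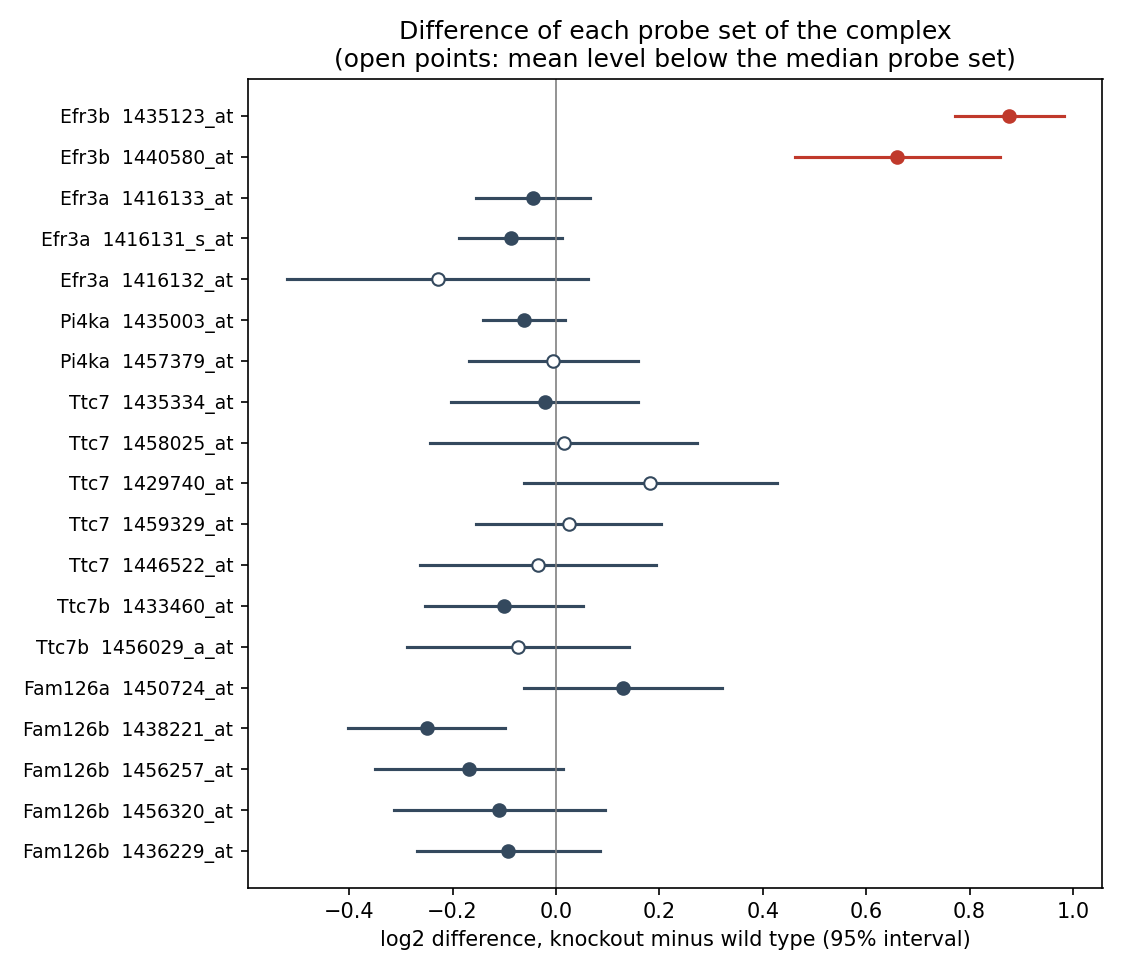
Log2 difference, knockout minus wild type, of all 19 probe sets with limma's 95% interval. Open points are probe sets whose mean level lies below the median probe set. Both Efr3b probe sets lie at 0.66 and 0.88, and the intervals of all 17 partner probe sets end at or below 0.43.

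Among the membrane anchors, Efr3a is the paralog that can take the place of Efr3b in the complex. Its brightest probe set, 1416133_at, read 10.73, 10.60 and 10.64 in the knockout, against 10.77, 10.64, 10.74 and 10.65 in wild type. The groups overlapped, and the difference was -0.044 ± 0.049 (SE), with a 95% interval from -0.15 to 0.066 (limma, adjusted p = 0.773). The second probe set, 1416131_s_at, differed by -0.088 ± 0.044 (SE), and the dimmest, 1416132_at, by -0.23 ± 0.13 (SE). All 3 differences were negative and none passed, with adjusted p-values of 0.513 or more (limma). An opposite change of Efr3a that matched Efr3b in size was outside the interval of its brightest probe set.

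For the kinase itself, the brighter Pi4ka probe set, 1435003_at, read 11.54, 11.42 and 11.47 in the knockout, against 11.56, 11.52, 11.52 and 11.54 in wild type. Among the brightest probe sets of the 7 complex genes, that of Pi4ka had the smallest spread, with a pooled within-group SD of 0.039, where the median over probe sets above the median level was 0.086. Its difference was -0.062 ± 0.035 (SE), and the 95% interval ran from -0.14 to 0.017, or 0.906-fold to 1.01-fold (limma, adjusted p = 0.556). Knockout array 1 lay within the wild-type range and the other two knockout arrays below it. The dimmer Pi4ka probe set, 1457379_at, differed by -0.0054 ± 0.072 (SE).

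The scaffold genes did not pass either. Ttc7, known in mouse as the gene of the flaky skin mutation, was read by 5 probe sets, of which 4 were below the median level of all probe sets and cannot be told from background. The brightest, 1435334_at, read 6.75, 6.58 and 6.66 in the knockout, against 6.80, 6.73, 6.56 and 6.65 in wild type. These groups overlapped almost fully, with a difference of -0.022 ± 0.080 (SE; limma, adjusted p = 0.941) whose sign turned with the mean of all Ttc7 probe sets (0.033). The 5 probe sets differed by -0.035 to 0.18, with 2 of them negative. Ttc7b, its paralog, had a bright probe set, 1433460_at, that read 9.84, 9.85 and 10.03 in the knockout, against 9.92, 10.14, 10.001 and 9.96 in wild type. Knockout arrays 1 and 2 lay below all wild-type arrays and knockout array 3 above all but wild-type array 2. The Ttc7b difference was -0.10 ± 0.068 (SE), with a 95% interval from -0.25 to 0.053 (limma, adjusted p = 0.621), and -0.073 ± 0.095 (SE) by its dim probe set.

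The FAM126 genes gave differences of opposite sign, neither of which passed. Fam126a encodes hyccin, which in humans is mutated in a disorder of myelin formation. It was read by 1 probe set, at 8.58, 8.82 and 8.75 in the knockout, against 8.66, 8.41, 8.70 and 8.58 in wild type. The groups overlapped, and the difference of 0.13 ± 0.085 (SE) had a 95% interval from -0.061 to 0.32 (limma, adjusted p = 0.608).

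Fam126b, the hyccin paralog, was the partner gene with the largest difference among the brightest probe sets. Probe set 1438221_at read 10.75, 10.84 and 10.92 in the knockout, against 10.98, 11.23, 10.99 and 11.14 in wild type. All 3 knockout arrays lay below all 4 wild-type arrays, the only one of 17 partner probe sets (5.88%) to do so, while 5.02% of all probe sets did. The difference was -0.25 ± 0.067 (SE), or 0.841-fold, with a 95% interval from 0.757-fold to 0.934-fold, and it did not pass (limma, adjusted p = 0.329). All 4 Fam126b probe sets had a negative difference: the other three were at -0.17 ± 0.080 (SE), -0.11 ± 0.091 (SE) and -0.092 ± 0.078 (SE), and overlapped between the groups.

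The Fam126b probe sets shared a pattern within the wild-type group. Wild-type arrays 2 and 4 were the highest 2 of the 7 arrays on all 4 probe sets. The same 2 arrays also had the highest scores of thalamus and habenula markers, a score being the median over a list's genes of the log2 deviation from the gene's mean of 7 arrays. These scores were -0.46, -0.40 and 0.21 in the knockout, against -0.50, 0.93, -0.18 and 0.31 in wild type. All 12 listed thalamus and habenula genes were measured, 10 had a negative difference, and Slc17a7, Pou4f1 and Gbx2 read below the median level. Their summed level ran from 13.07 to 13.39 in the knockout, against 13.02 to 13.99 in wild type, on the log2 scale. Neuron markers had scores of -0.056 to -0.016 in the knockout, against -0.0071 to 0.086 in wild type, with 10 of 12 genes negative, 0 below the median level, and summed levels of 15.66 to 15.72 against 15.71 to 15.80. The part of either tissue component in the Fam126b values was not tested. When wild-type arrays 2 and 3 were both left out, as the arrays with the top thalamic and meningeal scores, the Fam126b difference was -0.23 and that of Efr3b 0.81. That setting kept wild-type array 4, so it does not show what Fam126b would read without the pattern of wild-type arrays 2 and 4. These 2 arrays were not left out together in any setting.

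**Figure D3:**
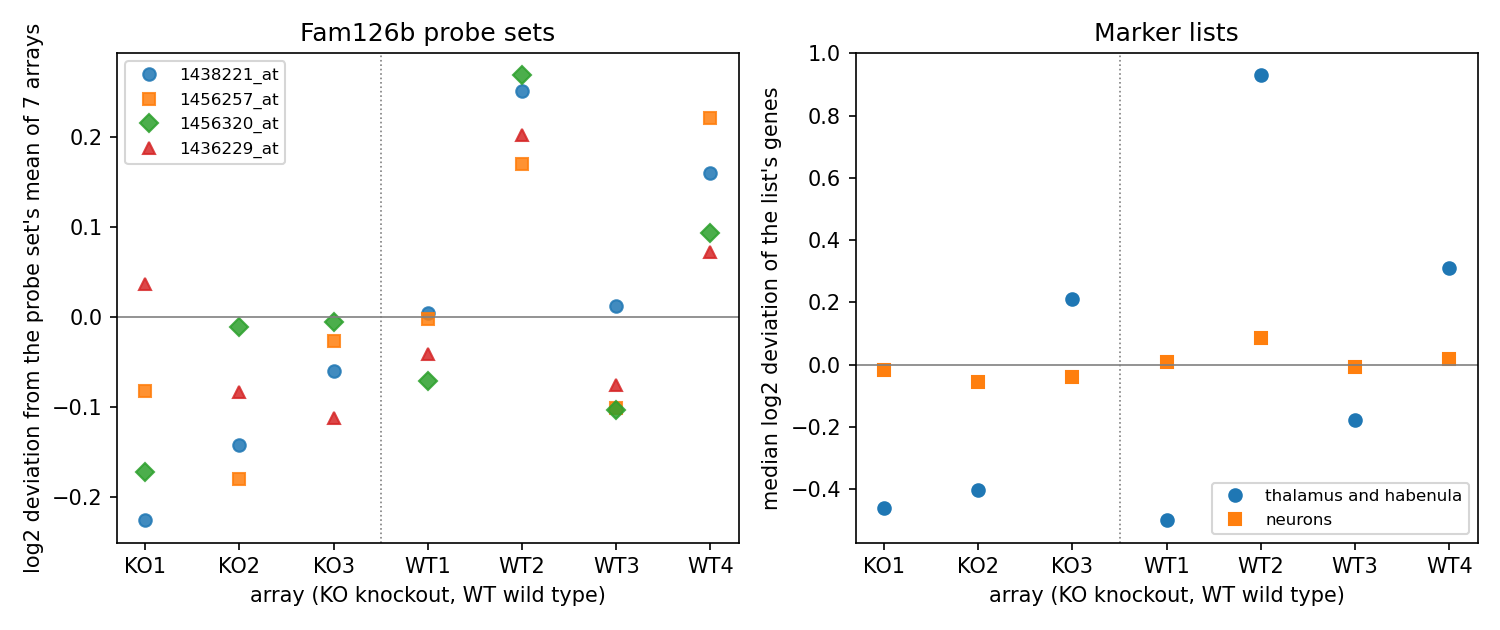
Left, the 4 Fam126b probe sets as log2 deviations from their own mean of 7 arrays. Right, scores of thalamus and habenula markers and of neuron markers on the same arrays, with knockout (KO) arrays left of the dotted line and wild type (WT) right of it. Arrays WT2 and WT4 are highest on both sides, with thalamic scores of 0.93 and 0.31.

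To name the genes with the most similar array pattern, each gene's log2 deviations from its mean of 7 arrays were set against those of the brighter Efr3b probe set, by root mean square distance. Since Efr3b was chosen for its genotype difference, which makes up most of its pattern, the distance largely restates that difference and is given as a description. A gene that was flat across the arrays would lie 0.44 from Efr3b, and the median distance over 8897 brighter genes was 0.45. The partner genes lay at 0.38 (Fam126a), 0.45 (Ttc7), 0.46 (Efr3a), 0.47 (Pi4ka), 0.50 (Ttc7b) and 0.57 (Fam126b), in the order of their differences. Fam126a stood at the 6.34 percentile of these distances and Fam126b at the 96.5 percentile. The 5 nearest genes were Rpa3 at 0.16, Tmem144 at 0.20, Klk6 at 0.22, Thrsp at 0.23 and Spa17 at 0.24. Rpa3 encodes a subunit of replication protein A, Klk6 a kallikrein protease, Thrsp a protein linked to fatty acid synthesis and Spa17 a sperm surface protein. All 5 were higher in every knockout array than in any wild-type array, which follows from how they were chosen, with log2 differences of 0.42 to 0.78.

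Efr3b adjoins Pomc on chromosome 12 in the RefSeq gene table, on the opposite strand. The labels do not say whether the Pomc-driven Cre transgene carries sequence of this stretch, Efr3b included, and the copy number of Efr3b was not measured. For the 1.84-fold difference of Efr3b, loss of Creb and added copies of Efr3b therefore cannot be told apart. Of the neighbours with a probe set, Dtnb, Dnmt3a and Pomc on one side differed by 0.067, -0.20 and 0.21, and Dnajc27, Adcy3 and Cenpo on the other side by -0.049, -0.20 and 0.085. None of the 6 passed by its brightest probe set (limma, adjusted p of 0.267 to 0.765 over all genes), and none differed by as much as Efr3b. Of the 5 Dnmt3a probe sets, 4 were lower with an unadjusted p under 0.05, by -0.19 to -0.23, and 3 of these did not overlap between the groups, while the other was at 0.18. The 4 Adcy3 probe sets ran from -0.20 to 0.11, with 1 lower and 1 higher in the knockout without overlap. Over all probe sets, 10.6% had an unadjusted p under 0.05, 5.02% were lower without overlap and 6.02% higher without overlap. Probe sets of the same gene are not independent readings. The 2 Dnajc27 probe sets differed by -0.049 and -0.20. Pomc itself read 10.30, 9.68 and 9.66 in the knockout, against 10.28, 9.24, 9.49 and 9.69 in wild type, and its 95% interval from -0.34 to 0.75 was wide. Creb1, the targeted gene, read 9.42, 9.46 and 9.47 in the knockout, against 9.44, 9.57, 9.40 and 9.56 in wild type. Its 6 probe sets differed by -0.11 to 0.18, and such whole-tissue values do not check the genotype labels.

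Genes that make, convert, move or cleave phosphoinositides and their precursors were examined next, from a list of 50 outside the complex, of which 49 had a named probe set. By the brightest probe set, 0 of 49 passed over 18193 genes (limma), and 0.0110% of all genes did. An unadjusted p under 0.05 was reached by 9 (18.4%), 8 lower and 1 higher, where 11.7% of all genes reached it, 6.12% lower and 5.60% higher. With the mean of all probe sets of a gene the count was 4. Differences by the brightest probe set were negative for 34 of the 49, with a median of -0.037, against 48.5% of all genes and a median of 0.0036. The 49 were not matched to all genes in level, and only Plcb2 and Pi4k2b read below the median probe set. Other probe sets of a gene can differ in sign, here and in the counts by role below.

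The 3 other 4-kinase genes had positive differences by their brightest probe sets. Pi4kb, which encodes the beta 4-kinase that works mainly at the Golgi, read 8.85, 9.26 and 8.87 in the knockout, against 8.55, 8.56, 8.51 and 8.58 in wild type. The groups did not overlap, but knockout array 2 stood well above the others. Its difference was 0.44 ± 0.094 (SE), short of the threshold (limma, adjusted p = 0.220), and 0.31 without that array. The other Pi4kb probe set differed by -0.022, but it was below the median level and cannot be told from background. The type II kinase genes Pi4k2a and Pi4k2b differed by 0.021 and 0.022 by their brightest probe sets, and their other probe sets read differently. The second Pi4k2a probe set, 1433462_a_at, read 6.41, 8.76 and 8.05 in the knockout, against 8.80, 8.79, 7.93 and 8.72 in wild type, at -0.82 ± 0.47 (SE), with knockout array 1 far below the rest. The dimmest Pi4k2b probe set, 1420411_a_at, read 3.84, 5.03 and 4.17 in the knockout, against 3.84, 3.02, 3.01 and 3.09 in wild type, at 1.11 ± 0.29 (SE; limma, adjusted p = 0.324 over probe sets), and the remaining one differed by 0.26. All 3 Pi4k2b probe sets, the brightest included, were below the median level and cannot be told from background. Tmem150a, whose product can join the EFR3 complex, differed by 0.0032.

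A further 7 phosphoinositide kinase genes, of which those of the Pip5k1 family encode the enzymes that act on phosphatidylinositol 4-phosphate, differed by -0.064 (Pip5k1c) to 0.11 (Pip4k2a), with 0 at an unadjusted p under 0.05. Of 8 genes of phosphatidylinositol synthesis and transfer, 6 were negative, with a median of -0.077. Pitpnc1, a phosphatidylinositol transfer protein gene, differed by -0.21 ± 0.063 (SE) and Cds2, which makes the activated lipid precursor, by -0.093 ± 0.030 (SE), with adjusted p-values of 0.308 and 0.321 (limma). The 9 Pitpnc1 probe sets ran from -0.21 to 0.031, and their mean differed by -0.062. Of 8 phosphatases 7 were negative, among them Inpp5b, a 5-phosphatase related to Ocrl, at -0.20 ± 0.080 (SE).

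Of 10 lipid transfer protein genes that use phosphatidylinositol 4-phosphate, 9 were negative by their brightest probe set, with a median of -0.077. Of these, Osbpl10, Osbpl6, Osbpl9, Osbp2 and Osbpl3 had another probe set that was positive, at up to 0.18, 0.16, 0.13, 0.014 and 0.014. The remaining negative genes, Osbp, Osbpl2, Osbpl5 and Osbpl8, had 1 probe set each. The largest difference was that of Osbpl3, which read 6.39, 6.36 and 6.55 in the knockout, against 6.62, 7.44, 6.78 and 7.29 in wild type, at -0.60 ± 0.19 (SE; limma, adjusted p = 0.315). Its 3 probe sets ran from -0.60 to 0.014, and their mean differed by -0.27. On the brightest Osbpl3 probe set, wild-type arrays 2 and 4 were the highest 2 arrays. Of 12 phospholipase C genes 8 were negative, with Plch2 at -0.35 ± 0.12 (SE), Plcg1, which acts below receptor tyrosine kinases, at -0.15 ± 0.041 (SE), and Plcb1, which acts below Gq-coupled receptors, at -0.15 ± 0.052 (SE). The 2 Plch2 probe sets were at -0.35 and 0.052, and their mean differed by -0.15. Of the 9 genes with an unadjusted p under 0.05, 5 had wild-type arrays 2 and 4 as their highest 2 arrays: Pitpnc1, Osbpl3, Plch2, Plcb1 and Inpp5b. Since 8 of the 9 were counted for being lower in the knockout, having 2 wild-type arrays on top largely follows from that choice. The share of all genes with this pair on top was not computed, so the count is only a description. The part of thalamic or neuronal tissue in the values of these genes was not tested. Signs turned with the mean of all probe sets for Plcg1 (0.063), Plcb1 (0.039) and Cds2 (0.015).

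**Figure D4:**
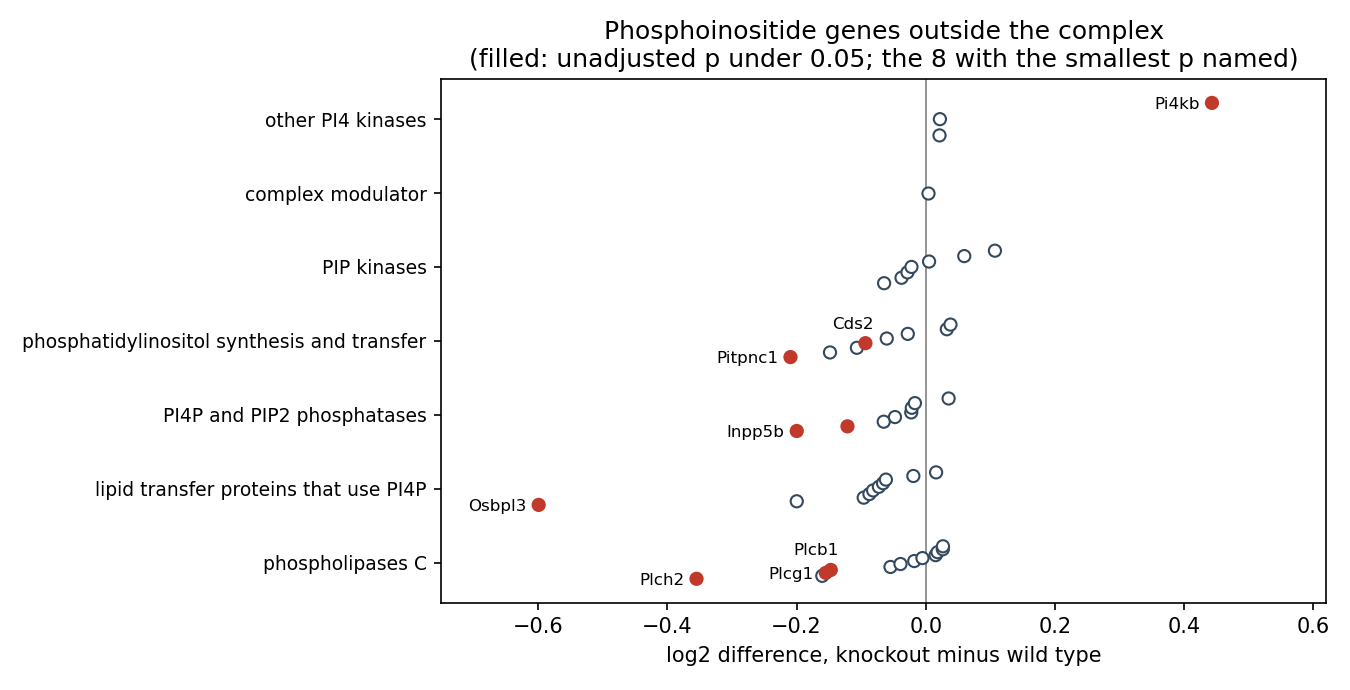
Log2 difference, knockout minus wild type, of 49 phosphoinositide genes outside the complex, by role. Filled points have an unadjusted p under 0.05, and the 8 with the smallest p are named: Pi4kb stands at 0.44, Osbpl3 at -0.60, and no gene passed the adjusted threshold.

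Over the whole series, array medians lay between 6.19 and 6.24 and correlations between arrays between 0.994 and 0.997. Of 11 hypothalamic markers with a named probe set, 9 read above the median level, while Nkx2-1 and Rax read below it. Of the 11, 9 had a positive difference, with a median of 0.12, and 3 had an unadjusted p under 0.05. Over all genes, 48.5% of differences were negative and 11.7% had an unadjusted p under 0.05. The count of markers at that p was also 3 for neurons, for astrocytes, and for endothelial and mural cells. It was 0 to 2 for the other lists. The hypothalamic scores were 0.13, 0.071 and -0.036 in the knockout, against 0.14, -0.26, -0.022 and 0.013 in wild type. Wild-type array 2 was the lowest for both this score and the brighter Efr3b probe set, and the part of this component in the Efr3b values was not tested. Meningeal and fibroblast markers stood apart in wild-type array 3, at a score of 1.48, against -0.49, 0.022 and -0.42 in the knockout and -0.43, 0.47 and -0.30 in the other wild-type arrays. RMA gives no detection call, and 7 of the 17 partner probe sets were below the median level of all probe sets.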

How the data were processed

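RNA from 7 samples of mouse hypothalamus was measured on Affymetrix mouse430_2 arrays. Analysis started from log2 expression values deposited by the authors; per the submitters' processing notes, the tools were R 2.10.0, affy and RMA, in an unstated order. In its usual form RMA equalises overall signal between arrays. No test used the 64 control probe sets. Of the rest, 34945 carried 1 gene symbol, 932 several and 9160 none in the platform annotation, and 0 sample columns were left unmapped. The 3 knockout and 4 wild-type arrays were compared with limma 3.58.1 under R 4.3.3 (two-sided, lmFit and trended eBayes), adjusted by Benjamini-Hochberg over all probe sets for the complex, and over all genes, each by its probe set with the highest mean, for lists and neighbours. Errors are SDs over arrays or limma's SE, with 95% intervals from limma. The number of arrays limits the precision, and the median SE over probe sets was 0.079. The fit was tested on simulated data.

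Members and lists were chosen with earlier results of these data known. Named beside the members were Creb1, the 3 genes with probe sets on each side of Efr3b, the 8 phosphoinositide genes of smallest p, and the 5 genes nearest to Efr3b. Pi4k2a, Pi4k2b, Tmem150a, Pip5k1c and Pip4k2a were named after their values were seen. Other marker lists (oligodendrocytes, astrocytes, microglia, endothelial and mural cells) had median differences of -0.063, 0.030, -0.086 and -0.099. Same-numbered arrays of the 2 groups deviated together, with correlations over probe sets of 0.26, 0.11 and 0.16 (0.093 for number 2 when the arrays numbered 1 to 3 alone were used). Arrays of different number in the 2 groups had correlations of -0.24 to 0.094. Same-numbered arrays also shared their inferred sex, female for number 1 and male for numbers 2 and 3. A pairing by number was used only in the replicate block among the alternatives. It rests on these values and not on a stated batch, and the main tests ignore it. The gene table is that of GRCm38.p6 and was used only for names and gene order. Alternatives were a filter on dim probe sets, eBayes with no trend, array weights, renormalized values, a replicate block, sex as a covariate, averaged probe sets, a looser threshold and left-out arrays. Figures were drawn with matplotlib 3.10.9.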

Additional observations from a re-analysis of the deposited data

Results flagged for a closer look

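Dixon's criterion was applied to the wild-type arrays of 40 probe sets. These were all probe sets of the complex genes and the brightest of Creb1 and of each named neighbour of Efr3b. The brightest of the 9 phosphoinositide genes with an unadjusted p under 0.05 and of the 5 genes nearest to Efr3b were added. Other probe sets in the text, such as those of Pi4k2a and Pi4k2b, were not tested. Of the 40, 2 had a wild-type array far from the other 3, and chance alone flags about 5% of such groups. Plcg1 read 9.73 in wild-type array 4, and 9.64 to 9.65 in the rest of that group. Spa17 read 7.78 in wild-type array 1, against 7.36 to 7.40 in the others. No Efr3b or partner probe set was among them.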

How the results depend on the processing

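Across the alternatives 0 partner probe sets and 0 phosphoinositide genes passed the threshold, also at an adjusted p under 0.10 for the partners. The count of partner probe sets with an unadjusted p under 0.05, added after seeing the data, was 2 with array weights, 3 without wild-type arrays 2 and 3, and 1 to 3 with an array left out. The Efr3b difference was 0.81 without wild-type arrays 2 and 3, 0.77 when its probe sets were averaged, 0.85 to 0.91 with an array left out, and 0.89 with sex as a covariate. The median difference over the brightest probe sets of the 6 partner genes, -0.053, moved between -0.074 and -0.027 when an array was left out. The count of 9 phosphoinositide genes with an unadjusted p under 0.05 was 4 when each gene's probe sets were averaged, 7 when the values were quantile-normalized again, and 6 to 11 with an array left out. With the mean of all probe sets, signs turned for Ttc7 (0.033), Plcg1 (0.063), Cds2 (0.015) and Plcb1 (0.039), and leaving out an array moved Ttc7 between -0.065 and 0.019. The causes were not tested. With the replicate block over the arrays numbered 1 to 3, Efr3b differed by 0.89 and the median over the 6 brightest partner probe sets was -0.060. Both equal the values without wild-type array 4, since a balanced block cannot move a difference and alters only its SE. The Efr3b SE was 0.042 with the block and 0.053 without it on the same arrays. On these arrays 0 partner probe sets passed with or without the block. An unadjusted p under 0.05 was reached by 10 phosphoinositide genes with the block and 7 without it. Without detection calls, small differences of dim probe sets, as for Ttc7, cannot be read.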
